A study of Mus musculus with 24 samples.

Results

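The genes described here are those that were higher than in empty-vector cells under both MycER WT and MycER HEA, at 4 h and at 8 h of OHT. There were 99 of them among 21671 genes in the table. The members were selected on RNA-seq levels of the WT, HEA and EV libraries in RPKM (reads scaled to gene length and sequencing depth), with log2(RPKM + 0.5) averaged over the 3 libraries of a group. A gene was kept if it reached 1 RPKM in at least 3 libraries, with RA libraries counted. Its mean also had to be at least 0.6 above EV (empty vector) of the same time in each of 4 comparisons. These were WT and HEA at 4 h and at 8 h. Of the 12268 genes past the level filter, 102 met these bounds. Of the 5 genes left out by name (Esr1, Fzd9, Pgbd5, Kcnk10 and P2ry2), 3 had met them (Esr1, Fzd9 and Kcnk10).

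The cells were 3T9 mouse fibroblasts, an immortalised line, infected with MycER_WT, MycER_HEA, MycER_RA or an empty vector. All of them received OHT (4-hydroxytamoxifen), EV cells included, for 4 h or 8 h, which gives 8 groups of 3 libraries. No libraries from cells without OHT were used here, so changes that OHT itself causes are shared by all groups and cannot be seen. The labels do not name the vector or its promoter, and whether a group's 3 libraries come from 3 cultures is not said. The p-values therefore reflect how these libraries vary, which may be technical.

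Myc is a transcription factor that binds DNA as a pair with Max, with the E-box CACGTG as its preferred site. It contacts DNA both through the backbone, with little regard to sequence, and through the bases of the E-box. MycER is Myc fused to the part of the oestrogen receptor that binds hormone, so that OHT switches it on. As known from the study rather than from the labels, HEA has alanines in place of residues that touch the bases of the E-box, and RA has alanines in place of arginines that touch the backbone. The series asks what each kind of contact contributes to gene regulation, and the 99 genes are those on which a Myc form with and a form without the base contacts both gave higher levels than EV.

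Depth recovered from the RPKM steps was 9.82 to 12.79 M reads per library (median 10.95). Esr1, whose hormone-binding part is in MycER, checked the labels of MycER against EV. It had 9.04 to 13.7 RPKM in the 18 MycER libraries and 0.099 to 0.385 RPKM in the 6 EV libraries. Esr1 does not tell WT, HEA and RA apart, nor the times. Of 12 fibroblast markers, 11 were at 1 RPKM or more in every library, and their sum was 817 to 1070 RPKM. Epithelial, endothelial and adipocyte markers summed to under 1 RPKM in every library. Among the 5 macrophage markers found in these data, 3 stayed under 1 RPKM throughout, as did 4 of 5 muscle markers and 3 of 4 neuron markers. The neuron sum was 24.8 to 29.7 RPKM in WT, 8.1 to 8.86 in HEA, 11.2 to 13.2 in RA and 11.5 to 16.2 in EV at 8 h. Neuron sums at 4 h were 20.1 to 28.3 RPKM in WT, 10.1 to 12.7 in HEA, 11.5 to 15.6 in RA and 14.0 to 16.5 in EV. The muscle sum was 1.82 to 2.82 RPKM in WT, 1.54 to 1.87 in HEA, 3.39 to 3.67 in RA and 3.58 to 4.20 in EV at 8 h. At 4 h it was 4.50 to 6.04 RPKM in WT, 2.32 to 3.24 in HEA, 6.11 to 9.13 in RA and 6.23 to 7.05 in EV. At both times it was thus lower in WT and HEA than in EV without overlap, while RA overlapped EV in range. The macrophage sum was 15 to 16.4 RPKM in WT, 9.71 to 11.1 in HEA, 11 to 13.4 in RA and 12 to 16.6 in EV at 8 h. Macrophage sums at 4 h overlapped in all groups. They were 10.8 to 13.4 RPKM in WT, 8.36 to 12.7 in HEA, 10.6 to 14.6 in RA and 8.85 to 12.7 in EV. The part of these markers in the results was not tested. In bulk RNA, more cells of a type and more RNA per cell cannot be told apart. The 3 libraries that lay farthest from their group means over all genes were replicate 3 of WT at 8 h, replicate 3 of WT at 4 h and replicate 2 of EV at 4 h.

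By the choice of members, their differences from EV are a description and carry no test. The median difference over the 99 was 0.90 in WT and 1.18 in HEA at 4 h, and 1.13 in WT and 1.14 in HEA at 8 h, on the log2(RPKM + 0.5) scale. The highest single differences were 2.90 for Rgcc in WT and 3.23 for E330009J07Rik in HEA, both at 4 h. The 3 members nearest the bound had smallest differences of 0.601 (Ccser1), 0.602 (Entpd6) and 0.603 (Gpr155). Just outside were Pm20d2 and Mir875, both at 0.596, and Phlda2 at 0.591. Across genes past the filter, 0.807% belong to the set.

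The set joins genes of many functions, grouped here by roles assigned after the members were known. The 16 genes of signalling and trafficking are Rgcc, Arhgap39, Ankrd6, Prickle1, Spry1, Mob3b, Ica1, Itpk1, Pacs1, Smad9, Rab3a, Rasl11a, Zfyve28, Dock4, Kif21a and Ptpn4. The 10 metabolic enzymes and small-molecule carriers are Gls2, Car12, Slc30a1, Prodh, Cbr3, Slc22a21, Pdxp, Nudt19, Gclc and Entpd6, and the 7 lipid enzymes and carriers are Xkr8, Mfsd2a, Dgat2, Acsl1, Cers1, Daglb and Srd5a1. The 9 genes placed under receptors and cell surface are Tmem158, Adora2b, Lrfn1, Dlk2, Gpr146, Tspan33, Plxnd1, Gpr135 and Gpr155. The 6 ligands and matrix proteins are Ghrh, Fgf18, Prss48, Adamts9, Angpt2 and Hapln4. Transcription and chromatin are represented by 6 genes (Pou3f1, Mxi1, Dnmt3b, Snapc4, Atmin and Zfp704), RNA and translation by 4 (Trmt61b, Rbm38, Eef2kmt and Rpp40) and protein turnover by 4 (Ifi30, Fbxo31, Sppl2b and Trim65). Airn and Kcnq1ot1 are the 2 long non-coding RNAs. The 17 other named genes are Reep6, Fam53b, Smtnl2, Fam212a, Higd1b, Lrrc73, Endog, Rita1, Pih1d2, Tmem64, Macrod2, Rprml, Tprn, Zbed5, Pex26, Fam105a and Ccser1. Predicted or clone names are carried by 7 (1700001O22Rik, 1700034H15Rik, 9330151L19Rik, E330009J07Rik, B930041F14Rik, 1700067K01Rik and Gm13315), and 11 are microRNA or snoRNA entries, named with their reads further on. The RA libraries entered the rule only through the level filter. In them the 88 members that are not short RNA entries had a median of 3.75 RPKM (quartiles 1.62 and 7.61). All 11962 such genes past the filter had a median of 17.2 RPKM (quartiles 6.42 and 33.3). Some members, such as Tspan33 (0.0432 to 0.199 RPKM in RA), passed the filter only through WT and HEA libraries. Their low RA level is thus built in, and the medians are a description. The median gene length recovered from the RPKM steps was 2654 bases for the members and 3248 bases for all.

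**Figure D1:**
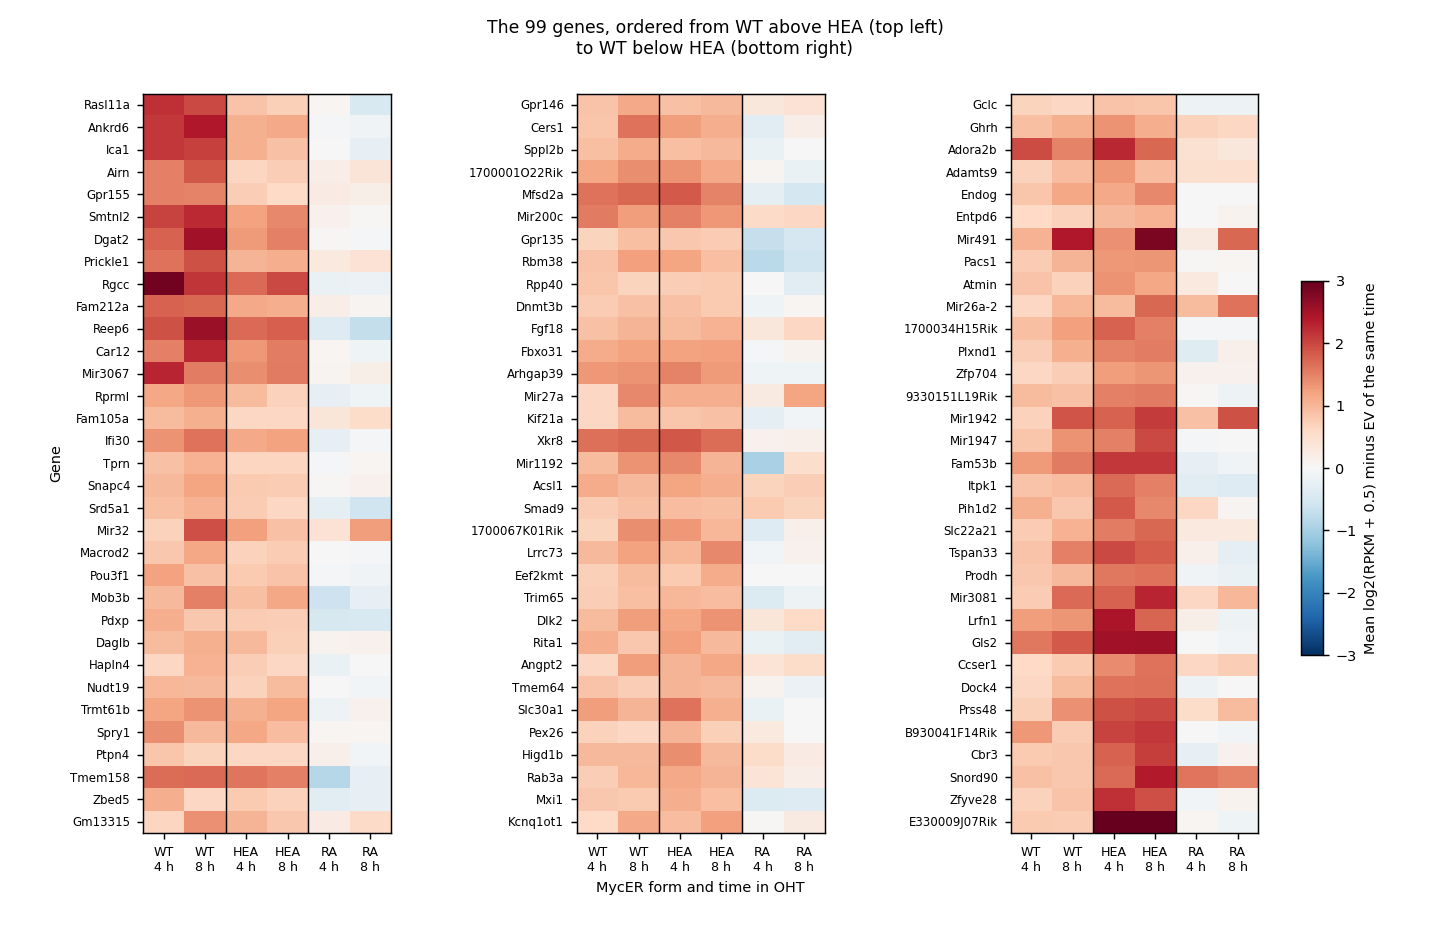
Each row is a gene of the set and each column a MycER form and time; colour gives mean log2(RPKM + 0.5) minus EV of the same time (3 libraries a group). WT and HEA columns are red throughout by the rule, while RA columns are mostly pale, with medians of 0.03 at 4 h and 0.04 at 8 h.

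Taking each member by the smallest of its 4 differences from EV, Reep6 and Rgcc stood at the top, both at 1.71. Reep6 is a membrane protein of the endoplasmic reticulum. Its level was 10.0, 9.46 and 7.47 RPKM in WT at 4 h and 23.1, 14.2 and 18.2 RPKM in WT at 8 h. In HEA it was 10.0, 5.50 and 8.41 RPKM at 4 h and 11.6, 8.98 and 10.3 RPKM at 8 h. RA libraries had 1.18, 1.17 and 2.06 RPKM at 4 h and 0.782, 1.81 and 1.78 RPKM at 8 h, against 1.61, 1.96 and 2.57 RPKM at 4 h and 2.52, 2.38 and 2.88 RPKM at 8 h in EV. All 12 WT and HEA libraries lay above all 12 RA and EV libraries, and RA overlapped EV at 4 h but lay below it at 8 h.

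Rgcc, a regulator of the cell cycle, had 12.9, 13.5 and 23.2 RPKM in WT and 8.03, 5.94 and 6.27 RPKM in HEA at 4 h. The 4 h values were 0.855, 2.13 and 1.46 RPKM in RA and 1.84, 1.28 and 2.02 RPKM in EV. The 8 h values were 24, 18.3 and 13.9 RPKM in WT, 14.7, 16.6 and 17.4 RPKM in HEA, 2.41, 3.35 and 4.16 RPKM in RA and 5.58, 3.33 and 2.75 RPKM in EV. WT lay above HEA at 4 h, the WT and HEA libraries overlapped at 8 h, and RA overlapped EV at both times.

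Xkr8, a scramblase that moves phospholipids between the leaflets of the plasma membrane, varied little within groups. It averaged 14.7 ± 0.95 RPKM in WT, 17.1 ± 0.86 in HEA, 4.74 ± 0.66 in RA and 4.32 ± 0.087 in EV at 4 h (SD, n = 3 each, as for all means below). At 8 h it averaged 16.8 ± 1.2 RPKM in WT, 16.1 ± 0.38 in HEA, 5.35 ± 0.24 in RA and 4.73 ± 0.077 in EV. Gls2, a mitochondrial glutaminase, averaged 9.06 ± 1.9 RPKM in WT, 17.6 ± 3.0 in HEA, 2.68 ± 0.084 in RA and 2.64 ± 0.42 in EV at 4 h. At 8 h its means were 14.7 ± 3.9 RPKM in WT, 24.1 ± 1.5 in HEA, 3.48 ± 0.38 in RA and 3.71 ± 0.47 in EV, so HEA lay highest at both times.

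Tmem158, a membrane protein known to be induced by Ras signalling, averaged 20.8 ± 4.4 RPKM in WT, 19.7 ± 3.4 in HEA, 3.13 ± 0.27 in RA and 6.13 ± 1.1 in EV at 4 h. Adora2b, the adenosine A2B receptor, averaged 5.20 ± 0.95 RPKM in WT, 6.42 ± 0.13 in HEA, 1.5 ± 0.20 in RA and 0.992 ± 0.40 in EV at 4 h. Mfsd2a, a carrier of lysophosphatidylcholine, averaged 8.73 ± 2.4 RPKM in WT, 10.4 ± 3.4 in HEA, 1.91 ± 0.38 in RA and 2.44 ± 0.23 in EV at 4 h. At 8 h WT and HEA again lay above every RA and EV library for all 3 genes. Mir3067, the eighth by this order, rests on 0 to 9 reads per library and is described with the other short RNA entries.

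**Figure D2:**
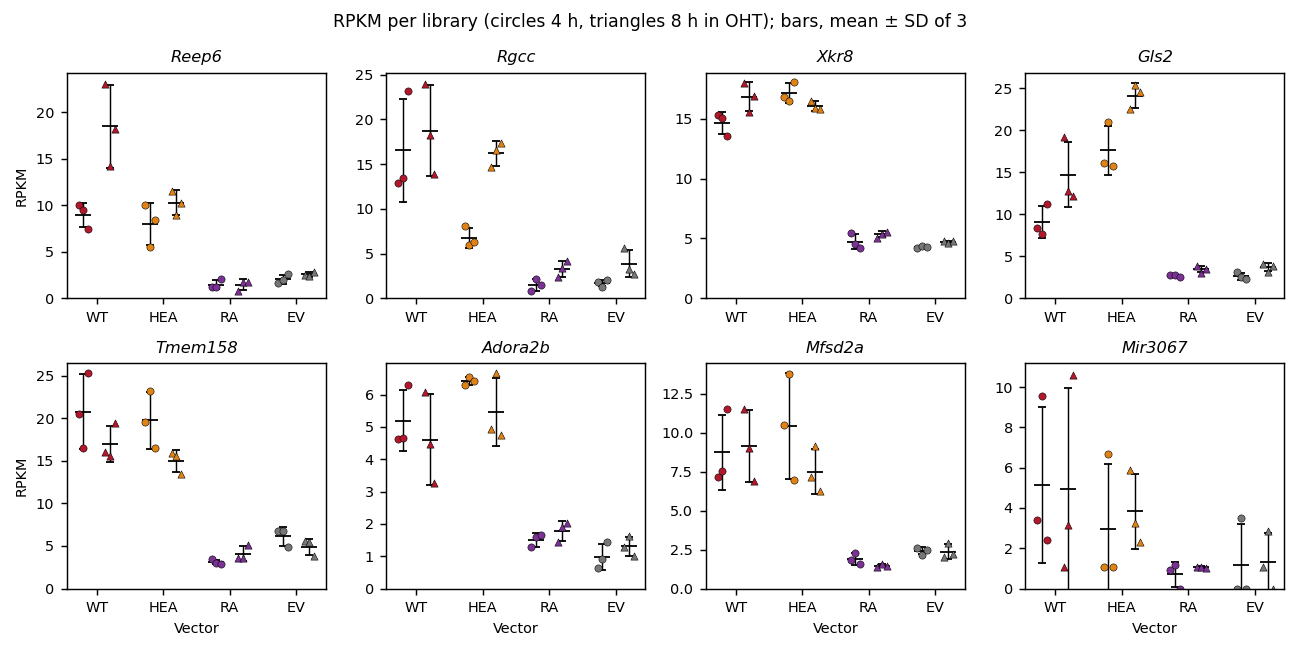
RPKM in each library for the 8 members with the largest value of their smallest difference from EV, by vector (circles 4 h, triangles 8 h); bars are mean ± SD of 3 libraries. In all but Mir3067 every WT and HEA library lies above every RA and EV library of the same time.

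The members with the highest mean level over all libraries were Gclc, Sppl2b, Dlk2, Pdxp and Tmem64. Gclc, the catalytic subunit of the enzyme that starts glutathione synthesis, averaged 55.2 ± 3.7 RPKM in WT, 63.0 ± 0.56 in HEA, 31.0 ± 0.47 in RA and 34.6 ± 0.53 in EV at 4 h. Sppl2b, an intramembrane protease, averaged 56.2 ± 1.9 RPKM in WT, 56.9 ± 9.3 in HEA, 25.7 ± 2.2 in RA and 29.8 ± 2.6 in EV at 4 h. Pdxp, a phosphatase of vitamin B6 phosphate, averaged 55.4 ± 7.6 RPKM in WT, 44.4 ± 1.7 in HEA, 18.3 ± 1.4 in RA and 26.0 ± 3.6 in EV at 4 h. Tmem64, a membrane protein, averaged 43.6 ± 8.3 RPKM in WT, 48.1 ± 1.2 in HEA, 25.6 ± 1.5 in RA and 23.8 ± 3.6 in EV at 4 h. Dlk2, a non-canonical ligand related to the Notch ligands, is given with RA.

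Mxi1 is the member of the set that belongs to the Myc and Max network: it pairs with Max and represses genes at E-boxes. It had 14.4, 14.4 and 16.5 RPKM in WT, 20.8, 15.7 and 19.5 in HEA, 6.04, 5.88 and 6.97 in RA and 8.58, 7.28 and 9.59 in EV at 4 h. Its 8 h values were 22.2, 18.8 and 16.9 RPKM in WT, 21.2, 21.7 and 20.5 in HEA, 7.57, 8.25 and 9.19 in RA and 11, 10.8 and 11.1 in EV. WT and HEA lay above EV and RA below EV in every library of either time. The difference between RA and EV did not pass the test at 4 h or at 8 h (limma adjusted p = 0.0501 and 0.0769), whereas the authors' deposited table calls it at both times.

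Promoters were read to see which members carry the E-box, since HEA lacks the contacts with its bases. The RefSeq promoter table (build GRCm38.p6; windows of 300 bases, most of them before a start site) held entries for 69 of the 99 members, 89 promoters in all. Of these 69 genes, 3 were matched through a RefSeq synonym (E330009J07Rik is Dennd11, Fam212a is Inka1 and Fam105a is Otulinl). CACGTG, its own reverse complement, was in 5 of the 89 promoters (5.62%), in 9.98% of the 11997 promoters of other tested genes and in 7.15% of all 32851 promoters of the table. The variant CACGCG, with its reverse complement CGCGTG, was in 25 of the 89 promoters (28.1%), in 17.1% of promoters of other tested genes and in 9.27% of all. A CACGCG and a CGCGTG can share bases. CATGTG or CACATG was in 12.4% of member promoters, 8.10% of those of other tested genes and 14.2% of all. CAGCTG was in 19.1%, 14.9% and 16.3%, and the GC box GGGCGG or CCGCCC in 66.3%, 63.2% and 35.7%. These shares describe the letters of a short window, several promoters belong to the same gene, and no test was made.

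The 5 promoters with CACGTG belong to Gpr146 (an orphan receptor), Ica1 (a membrane-bending protein of secretory granules), Ifi30 (a lysosomal thiol reductase), Sppl2b and Trmt61b (a mitochondrial tRNA methyltransferase). Each is shown as 60 bases, 5′ to 3′ on the strand of the gene, with CACGTG in capitals. The first base of the hexamer is 1 base before the start site in Gpr146, 39 before it in Ica1, 196 in Ifi30, 228 in Sppl2b and 9 in Trmt61b. The windows are chr5:139380611-139380670 (+), chr6:8778491-8778550 (-), chr8:70766827-70766886 (-), chr10:80855025-80855084 (+) and chr17:71598738-71598797 (-), GRCm38.p6.
Gpr146: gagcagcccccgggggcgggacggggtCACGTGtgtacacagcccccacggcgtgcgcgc
Ica1: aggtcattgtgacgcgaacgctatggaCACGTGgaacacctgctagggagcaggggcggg
Ifi30: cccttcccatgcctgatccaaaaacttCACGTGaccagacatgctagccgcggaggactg
Sppl2b: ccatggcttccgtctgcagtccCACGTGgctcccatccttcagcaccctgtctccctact
Trmt61b: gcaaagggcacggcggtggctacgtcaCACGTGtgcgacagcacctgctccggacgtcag

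Rgcc (chr14:79301586-79301885, -) and Mfsd2a (chr4:122961139-122961438, -), from these 8 members at the top of that order, are shown whole because they lack CACGTG but carry CACGCG or CGCGTG, in capitals.
Rgcc: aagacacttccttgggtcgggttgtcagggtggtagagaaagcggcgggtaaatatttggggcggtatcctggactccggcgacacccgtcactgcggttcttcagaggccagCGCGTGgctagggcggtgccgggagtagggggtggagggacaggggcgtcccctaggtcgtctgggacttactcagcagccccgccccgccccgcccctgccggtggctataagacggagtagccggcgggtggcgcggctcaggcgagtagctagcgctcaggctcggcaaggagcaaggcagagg
Mfsd2a: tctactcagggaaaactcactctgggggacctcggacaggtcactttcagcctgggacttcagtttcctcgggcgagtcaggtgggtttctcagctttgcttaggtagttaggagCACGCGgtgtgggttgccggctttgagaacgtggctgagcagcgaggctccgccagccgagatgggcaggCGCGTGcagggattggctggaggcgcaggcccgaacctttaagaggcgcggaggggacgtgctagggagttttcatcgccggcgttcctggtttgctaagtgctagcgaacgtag

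RA, the form without the backbone contacts, entered the choice of members only through the level filter. The EV libraries it is compared with also entered the bounds of the rule. Over the 99 members the RA minus EV difference had a median of 0.03 at 4 h and 0.04 at 8 h, beside 0.02 and 0.00 over all genes tested. At 4 h, 5 members were higher and 3 lower in RA than in EV by limma-trend (Benjamini-Hochberg adjusted p under 0.05 over all genes), beside 2.58% and 2.73% of genes tested. At 8 h, 4 were higher and 3 lower, beside 1.49% and 1.29%. The split depends on scaling: with quantile normalisation 4 were higher and 8 lower at 4 h, and 4 higher and 5 lower at 8 h. With only the RA and EV libraries of 4 h in the fit, 0 members passed (voom on the recovered reads in the full fit gave 8; 11 were higher and 13 lower at an unadjusted p under 0.05 in the fit of all libraries). Leaving out 1 library gave 4 to 9 members at 4 h (4 without RA replicate 1, 5 without RA replicate 2 or without EV replicate 1). At 8 h it gave 3 to 9 (3 without RA replicate 1, 4 without EV replicate 1). Without EV replicate 1 all 4 were higher, so the 3 lower calls at 8 h (Rbm38, Pdxp and Srd5a1) were all lost. Without EV replicate 3, RA replicate 1 or RA replicate 2, 1 member was lower at 8 h, so at most 1 of the 3 calls held each time. The 4 h and 8 h comparisons share no library, and 6 members passed at both times in the same direction: Smad9, Acsl1, Ccser1 and Dlk2 higher, Rbm38 and Pdxp lower. That is 4 of the 5 higher at 4 h and 4 of the 4 at 8 h, and 2 of the 3 lower at either time. The rule asked for levels above EV at both times, which favours low EV values and can raise RA minus EV at both. The shared higher calls are therefore a description. Among other genes, the calls shared by both times were 28.8% of those higher at 4 h and 50.3% of those higher at 8 h. For lower calls they were 31.6% of those at 4 h and 67.7% of those at 8 h, and the members' 66.7% at 8 h is near the second of these.

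Smad9, a transcription factor of BMP signalling, had 16.2, 12 and 11.5 RPKM in RA at 4 h, against 7.22, 6.79 and 8.11 RPKM in EV. At 8 h it had 13.9, 12.5 and 11.3 RPKM in RA and 7.26, 7.37 and 8.68 RPKM in EV. Its RA level overlapped those of WT (11.5 to 15.6 RPKM over both times) and HEA (13.0 to 15.8 RPKM). The RA minus EV difference was 0.79 ± 0.12 (SE) at 4 h and 0.66 ± 0.12 at 8 h (limma adjusted p = 0.00114 and 0.00527). It missed the threshold at 8 h without RA replicate 1 (adjusted p = 0.0521) and at 4 h with only the 2 groups fitted (0.0786).

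Acsl1, which activates long-chain fatty acids, had 21.6, 20.8 and 16.3 RPKM in RA and 12.7, 10.8 and 13.0 RPKM in EV at 4 h. By 8 h the levels were 22.7, 19.3 and 16.5 RPKM in RA and 11.3, 11.3 and 11.4 RPKM in EV. RA lay above EV at both times, and below WT (24.7, 25.4 and 30.3 RPKM) and HEA (26.0, 28.6 and 29.5 RPKM) at 4 h. The RA minus EV difference was 0.66 ± 0.12 at 4 h and 0.74 ± 0.12 at 8 h (limma adjusted p = 0.00462 and 0.00256).

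Ccser1, a coiled-coil protein, averaged 6.98 ± 1.4 RPKM in RA and 4.32 ± 0.49 in EV at 4 h, and 5.88 ± 0.85 in RA and 3.34 ± 0.14 in EV at 8 h. Its difference was 0.62 ± 0.13 and 0.73 ± 0.13 (limma adjusted p = 0.0110 and 0.00597), and the 4 h call was lost without EV replicate 2 (0.0760), RA replicate 1 (0.0752) or RA replicate 2 (0.0530). Without RA replicate 1 the 8 h call was lost as well (0.0569). Dlk2 averaged 34.4 ± 3.0 RPKM in RA and 26.7 ± 2.3 in EV at 4 h, and 30.4 ± 0.91 in RA and 20.1 ± 1.6 in EV at 8 h. WT and HEA were higher still, at 52.5 ± 4.6 and 60.9 ± 4.3 RPKM at 4 h. The RA minus EV difference was 0.59 ± 0.087 at 8 h (limma adjusted p = 0.00195) and 0.36 ± 0.087 at 4 h (0.0207, and 0.0681 to 0.0995 without EV replicate 1 or 3 or RA replicate 1 or 2).

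In the other direction, Rbm38, an RNA-binding protein known as a p53 target, had 5.64, 4.72 and 5.74 RPKM in RA at 4 h, against 8.41, 11.5 and 9.74 RPKM in EV. At 8 h it had 6.35, 7.35 and 8.29 RPKM in RA and 12.1, 10.7 and 11.2 RPKM in EV. Every RA library lay below every EV library, while WT (16.2 to 30.7 RPKM) and HEA (19.5 to 25.4 RPKM) lay above. The RA minus EV difference was -0.82 ± 0.14 at 4 h and -0.60 ± 0.14 at 8 h (limma adjusted p = 0.00251 and 0.0210); the 8 h call was lost without EV replicate 1 or 3 or RA replicate 1 or 2 (0.0592 to 0.144). Tmem158 differed by -0.86 ± 0.17 at 4 h (limma adjusted p = 0.00716), with 3.43, 3.04 and 2.91 RPKM in RA and 6.81, 6.71 and 4.88 RPKM in EV. At 8 h its RA libraries (3.60, 3.63 and 5.07 RPKM) overlapped EV (5.53, 5.41 and 3.83 RPKM). Pdxp differed by -0.49 ± 0.11 at 4 h and -0.45 ± 0.11 at 8 h (limma adjusted p = 0.0159 and 0.0372), the 8 h call being lost without EV replicate 1. The remaining calls were Adamts9, a secreted matrix protease, higher in RA at 4 h (0.49 ± 0.14, limma adjusted p = 0.0423), and Srd5a1, a steroid reductase, lower in RA at 8 h (-0.59 ± 0.11, 0.00825), also lost without EV replicate 1. Without EV replicate 3, RA replicate 1 or RA replicate 2, at least 1 of the 8 h calls of Pdxp and Srd5a1 was lost too.

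**Figure D3:**
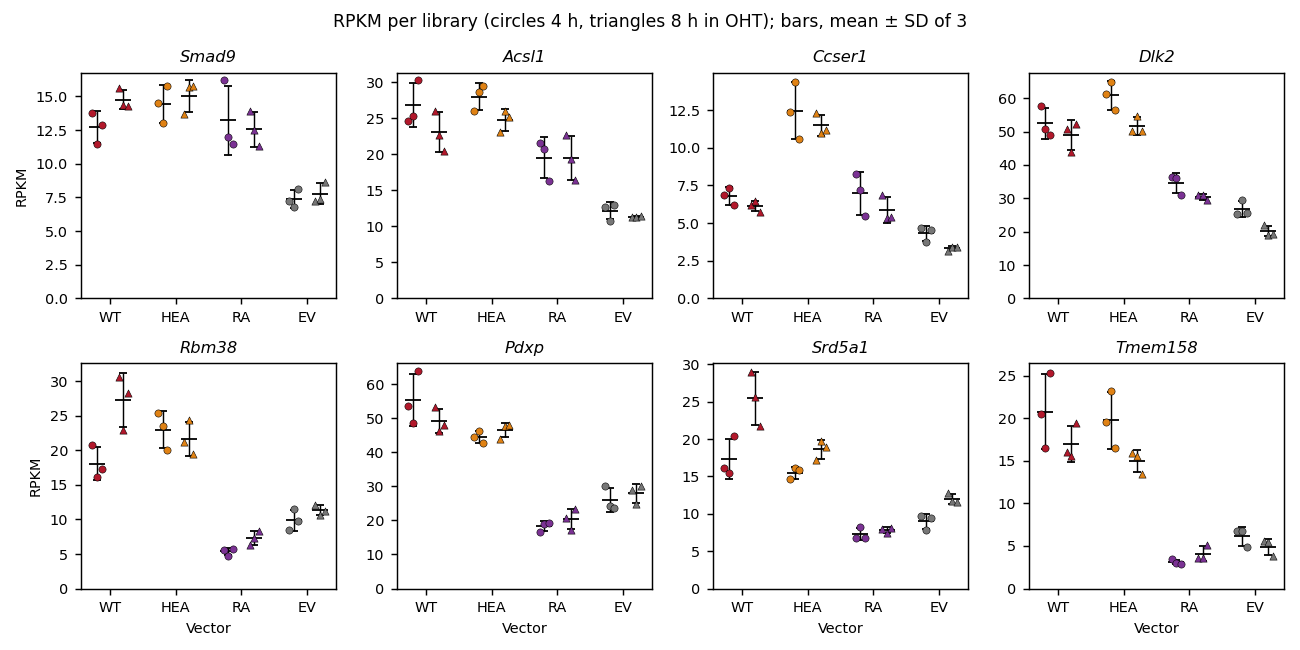
RPKM in each library for 8 members that differed between RA and EV at 4 h or 8 h, by vector (circles 4 h, triangles 8 h); bars are mean ± SD of 3 libraries. Smad9, Acsl1, Ccser1 and Dlk2 lie above EV in RA at both times, while Rbm38 and Pdxp lie below it.

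A group of members stood apart by its read numbers. The 11 microRNA and snoRNA entries (Mir1192, Mir1942, Mir1947, Mir200c, Mir26a-2, Mir27a, Mir3067, Mir3081, Mir32, Mir491 and Snord90) averaged 0.5 to 8.58 reads per library, with a median of 4.62, against a median of 242 reads for the other 88 members. Reads of a total RNA library at such an entry do not measure the mature small RNA. Mir3067 had 3, 8 and 2 reads in WT, 1, 6 and 1 in HEA, 1, 1 and 0 in RA and 0, 3 and 0 in EV at 4 h. Mir491 had 2, 5 and 9 reads in WT, 5, 5 and 9 in HEA, 1, 5 and 4 in RA and 1, 1 and 0 in EV at 8 h. A count of 0 is compatible with up to 3 reads, by counting error alone, so these EV levels are hardly resolved. In EV at 8 h Mir27a (3, 8 and 1 reads) and Mir1942 (0, 5 and 1) were highest in replicate 2. Mir26a-2 (1, 0 and 0 reads) was not. Whether such library spread shaped membership was not tested.

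The RA libraries entered the choice of members only through the level filter, but the EV libraries they are compared with entered the bounds. A member had to be low in EV, so with few reads the RA minus EV difference depends on that choice and is a description. For the 11 entries its median was 0.43 at 4 h and 1.19 at 8 h, beside 0.01 and 0.00 for the other 88 members. The 295 short RNA entries past the filter that are not members had medians of 0.01 and 0.10. The EV level of the 11 entries was itself lower at 8 h than at 4 h, by a median of -0.83, beside -0.12 for the other 295. RA was at least 0.6 above EV at both times in 8 members, beside 0.978% of genes tested. Of these, 4 are short RNA entries (Mir1942, Mir26a-2, Mir3081 and Snord90), and the others are Acsl1, Ccser1, Smad9 and Ghrh, which averaged 10.2 reads. All members that passed the test of RA against EV at 4 h or 8 h were among the other 88.

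**Figure D4:**
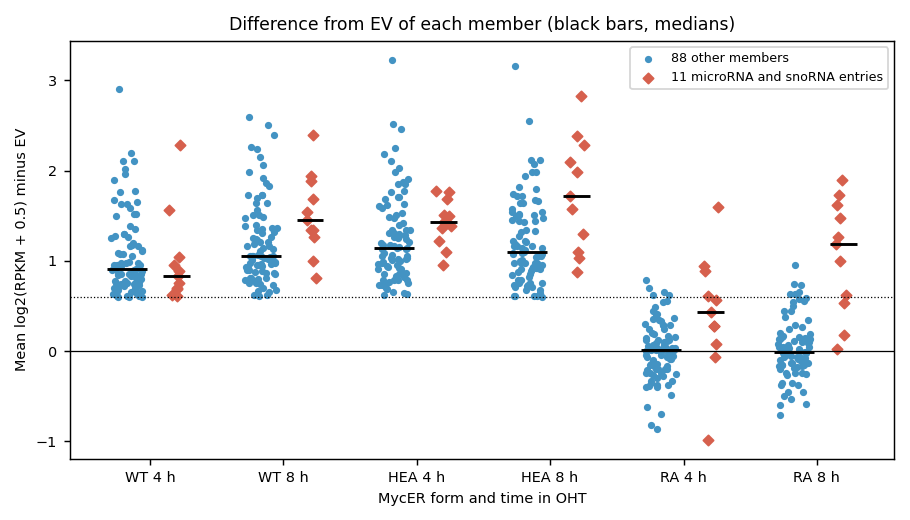
Mean log2(RPKM + 0.5) minus EV of each member by form and time, for the 88 other members (circles) and the 11 microRNA and snoRNA entries (diamonds); black bars are medians and the dotted line is the bound of 0.6. In RA at 8 h the diamonds have a median of 1.19 and the circles have a median of 0.00.

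WT and HEA were also set against RA. The WT and HEA libraries chose the members as high, so these counts describe how far the set separates from RA. Of the 99, 77 were higher in WT than in RA at 4 h and 79 at 8 h by limma-trend, beside 15% and 17.3% of genes tested, with median differences of 0.96 and 1.04. In HEA 81 were higher than in RA at 4 h and 78 at 8 h, beside 18% and 17.9%, with medians of 1.12 and 1.11. In all 4 comparisons 0 members were lower by limma-trend, by voom and at an unadjusted p under 0.05 alike. Among all genes 19.9% and 24.4% were lower in WT than in RA at 4 h and 8 h, and 28.3% and 27% lower in HEA than in RA. All 4 comparisons were passed by 72 members, none of them a short RNA entry, beside 3.60% of genes tested. Of the 14 members that passed none, 9 are short RNA entries. The others are Smad9, Angpt2, Fgf18, Ghrh and Gm13315. Angpt2, a ligand of the Tie2 receptor, was spread widely within groups, with 11, 14.7 and 16.3 RPKM in WT, 18.9, 11.5 and 10.2 in HEA, 10.0, 8.72 and 6.77 in RA and 4.98, 8.07 and 4.17 in EV at 8 h. Some other members were also highest in EV replicate 2 at 8 h. Kcnq1ot1 had 3.39, 6.15 and 2.89 RPKM there, and Gm13315 had 0.888, 1.86 and 0.77. Fgf18 (0.649, 0.961 and 0.993 RPKM) did not share this. The cause of the shared spread was not tested. Fgf18, a growth factor, averaged 2.27 ± 0.13 RPKM in WT, 2.38 ± 0.76 in HEA, 1.63 ± 0.41 in RA and 0.867 ± 0.19 in EV at 8 h.

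The members were then compared between WT and HEA. The libraries compared are those that chose the members, and the bound was hardest to reach in WT at 4 h (434 genes, beside 748 in WT at 8 h, 1155 in HEA at 4 h and 1276 in HEA at 8 h), so the rule shapes these counts, which are given as a description. At 4 h the WT minus HEA difference had a median of -0.22 (quartiles -0.55 and 0.13), beside 0.03 over all genes tested. By limma-trend 11 members were higher in WT than in HEA and 31 lower, beside 26.9% and 22.6% of genes tested. At 8 h the median was -0.02 (quartiles -0.31 and 0.35), beside 0.01 over all genes, and 18 members were higher and 18 lower in WT, beside 24.6% and 23.4%. So 42 and 36 of 99 members passed. The comparisons at 4 h and 8 h share no library. All 18 members higher in HEA at 8 h were among the 31 at 4 h, and 9 of the 18 higher in WT at 8 h were among the 11 at 4 h. The shared calls were 58.1% of the members higher in HEA and 81.8% of those higher in WT at 4 h. Among other genes the shared calls were 70.9% of those higher in HEA and 74.7% of those higher in WT at 8 h, and 73.7% and 68.1% of those at 4 h. Across the 99 members the differences of the 2 times had a Pearson r of 0.786 and a Spearman rho of 0.732, beside 0.838 and 0.801 over all 12268 genes, and 74 members had the same sign. Genes are not independent replicates, so these are descriptions. The change of the WT minus HEA difference between 8 h and 4 h passed for 0 members by limma-trend (at an unadjusted p under 0.05 it was positive in 12 and negative in 1).

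Among the members higher in WT, Rasl11a, a small GTPase of the Ras family, had 34.7, 31.3 and 23.7 RPKM in WT and 11.3, 13.5 and 11.5 RPKM in HEA at 8 h. RA had 7.16, 4.00 and 4.51 RPKM and EV 7.39, 5.56 and 8.78 RPKM. WT lay clear of the other 3 groups, and the WT minus HEA difference was 1.26 ± 0.24 at 8 h and 1.35 ± 0.24 at 4 h (limma adjusted p = 0.000181 and 0.000105).

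Ankrd6, an ankyrin-repeat protein of Wnt and planar polarity signalling, had 6.39, 4.76 and 4.36 RPKM in WT, 1.54, 2.21 and 1.85 in HEA, 0.368, 0.738 and 0.411 in RA and 0.678, 0.443 and 0.586 in EV at 8 h. WT lay above HEA, and HEA above RA and EV, which overlapped. Its difference was 1.25 ± 0.18 at 8 h and 1.05 ± 0.18 at 4 h (limma adjusted p = 6.11e-06 and 6.26e-05).

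Ica1, whose promoter carries CACGTG as shown above, had 14.6, 13.1 and 13.1 RPKM in WT, 5.12, 6.07 and 6.09 in HEA, 2.93, 2.27 and 1.95 in RA and 2.55, 3.12 and 2.95 in EV at 8 h. Its difference was 1.17 ± 0.13 at 8 h and 1.04 ± 0.13 at 4 h (limma adjusted p = 1.95e-07 and 1.38e-06). The other 4 genes with CACGTG differed less between WT and HEA: at 8 h Ifi30 was higher in WT by 0.42 ± 0.10 (limma adjusted p = 0.00177), and Gpr146 (0.16), Sppl2b (0.13) and Trmt61b (0.16) did not pass.

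Dgat2, which makes the last step of triglyceride synthesis, had 25.2, 25.2 and 27.1 RPKM in WT, 11.6, 14.1 and 12.4 in HEA, 3.66, 4.67 and 3.61 in RA and 4.38, 3.74 and 4.27 in EV at 8 h. The difference was 1.00 ± 0.13 at 8 h and 0.50 ± 0.13 at 4 h (limma adjusted p = 1.75e-06 and 0.00334).

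Airn, a long non-coding RNA that overlaps Igf2r on the other strand, averaged 9.41 ± 0.88 RPKM in WT, 4.13 ± 1.4 in HEA, 3.05 ± 0.15 in RA and 2.27 ± 0.67 in EV at 8 h, with a WT minus HEA difference of 1.13 ± 0.27 (limma adjusted p = 0.00156). At 4 h the difference was 0.88 ± 0.27 (0.0111), lost without WT replicate 2 (0.0670) or HEA replicate 3 (0.0849). Igf2r itself averaged 32.2 ± 1.7 RPKM in WT, 52.5 ± 2.0 in HEA, 32.1 ± 1.4 in RA and 29.8 ± 2.5 in EV at 8 h. The library kit keeps the strand, but how the counting used it is not stated in the sources at hand, so reads of the 2 genes may not be separated. Kcnq1ot1, the other long non-coding member, averaged 9.25 ± 0.69 RPKM in WT, 10.1 ± 2.9 in HEA, 4.88 ± 0.56 in RA and 4.14 ± 1.8 in EV at 8 h, while Kcnq1, the gene it overlaps, did not exceed 0.0986 RPKM in any library.

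Among the members higher in HEA, E330009J07Rik (Dennd11), singled out after its values were seen, differed most. It had 7.84, 6.48 and 5.33 RPKM in WT, 35.2, 37.4 and 36.2 in HEA, 3.55, 3.51 and 2.80 in RA and 3.87, 3.95 and 3.08 in EV at 8 h. All HEA libraries lay far above all others, and the WT minus HEA difference was -2.40 ± 0.13 at 8 h and -2.46 ± 0.13 at 4 h (limma adjusted p = 8.6e-12 and 1.65e-11).

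Cbr3, a carbonyl reductase, had 8.60, 9.49 and 9.85 RPKM in WT, 21.1, 22.5 and 25.3 in HEA, 6.75, 4.78 and 5.51 in RA and 5.05, 4.19 and 6.15 in EV at 8 h. The difference was -1.26 ± 0.17 at 8 h and -0.98 ± 0.17 at 4 h (limma adjusted p = 3.62e-06 and 8.79e-05). Zfyve28, an endosomal zinc-finger protein, was weakly expressed, at 0.815 ± 0.19 RPKM in WT, 2.31 ± 0.53 in HEA, 0.283 ± 0.043 in RA and 0.227 ± 0.091 in EV at 8 h, with a difference of -1.09 ± 0.16 (limma adjusted p = 9.04e-06). For both genes the groups of WT and HEA did not overlap.

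Dock4, which activates small GTPases, averaged 2.87 ± 0.067 RPKM in WT, 5.06 ± 0.72 in HEA, 1.27 ± 0.023 in RA and 1.25 ± 0.081 in EV at 8 h (WT minus HEA -0.71 ± 0.14, limma adjusted p = 0.00024). Ccser1 averaged 6.14 ± 0.36 RPKM in WT and 11.5 ± 0.70 in HEA at 8 h (-0.85 ± 0.13, 2.21e-05), so that WT was near RA (5.88 RPKM) and HEA well above both. Gls2 differed by -0.72 ± 0.16 at 8 h and -0.93 ± 0.16 at 4 h (limma adjusted p = 0.000989 and 9.32e-05).

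**Figure D5:**
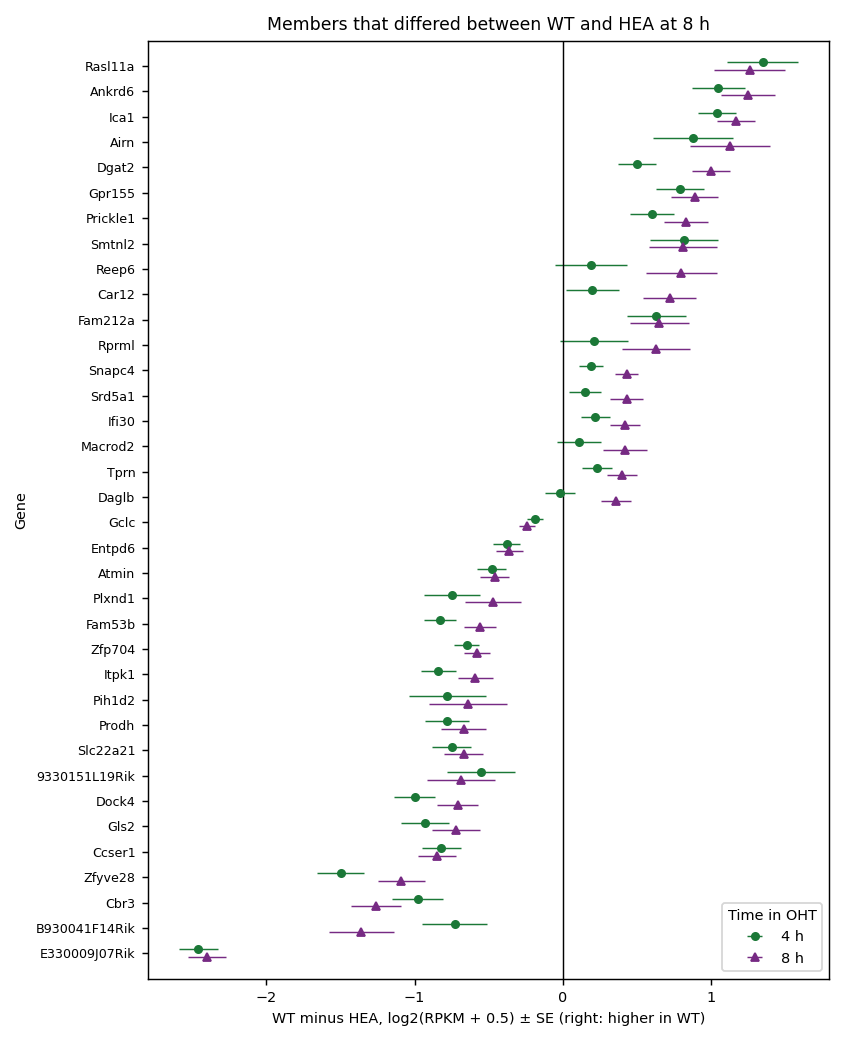
WT minus HEA difference in log2(RPKM + 0.5) ± SE at 4 h (circles) and 8 h (triangles) for the 36 members that passed at 8 h; points to the right are higher in WT. Of the 36, 18 lie on each side at 8 h, from 1.26 (Rasl11a) to -2.40 (E330009J07Rik).

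Members of several roles differed between WT and HEA at 8 h, when 18 of all 99 members were higher and 18 lower in WT. Over all genes tested 24.6% were higher and 23.4% lower in WT. Of the 10 metabolic enzymes and small-molecule carriers, 6 were lower in WT at 8 h (Cbr3, Gls2, Slc22a21, Prodh, Entpd6 and Gclc) and 1 was higher (Car12, a membrane carbonic anhydrase, 0.72). Slc22a21 is a carnitine carrier and Prodh the first enzyme of proline breakdown, and their differences were both -0.67. Of the 7 lipid enzymes and carriers, 3 were higher in WT at 8 h (Dgat2, Srd5a1 at 0.43 and Daglb, a diacylglycerol lipase, at 0.36), and the other 4 did not pass. Of the 16 signalling and trafficking genes, 4 were higher (Rasl11a, Ankrd6, Ica1 and Prickle1, a planar polarity protein, at 0.83) and 3 lower (Dock4, Zfyve28 and Itpk1, an inositol phosphate kinase, at -0.59). Of the 9 genes placed under receptors and cell surface, 1 was higher (Gpr155, 0.89) and 1 lower (Plxnd1, a semaphorin receptor, -0.47). Of the 6 genes of transcription and chromatin, Snapc4, a subunit of the complex that drives snRNA genes, was higher (0.43), and Atmin (-0.46) and Zfp704 (-0.58), both zinc-finger proteins, were lower. Of the 17 other named genes, 6 were higher in WT (Smtnl2, Reep6, Fam212a, Rprml, Macrod2 and Tprn, from 0.40 to 0.81) and 3 lower (Ccser1, Pih1d2 and Fam53b, from -0.85 to -0.56). Rprml averaged 5.54 reads per library, so its call rests on few reads. Airn and Ifi30 were higher in WT, as given above, and 3 genes with clone names were lower. The roles were assigned with the values known, so the counts are a description, and several are near the shares over all genes.

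Members with no difference past the threshold between WT and HEA at either time included Spry1, an inhibitor of receptor tyrosine kinase signalling. It had 21.0, 17.9 and 16 RPKM in WT, 17.4, 17.9 and 17.8 in HEA, 9.30, 8.98 and 9.87 in RA and 8.79, 9.23 and 9.14 in EV at 8 h. Dnmt3b, a de novo DNA methyltransferase, averaged 4.77 ± 0.38 RPKM in WT, 4.52 ± 0.66 in HEA, 2.51 ± 0.47 in RA and 2.39 ± 0.27 in EV. Pou3f1, a POU-domain transcription factor, averaged 2.36 ± 0.12 RPKM in WT, 2.34 ± 0.41 in HEA, 0.993 ± 0.36 in RA and 1.07 ± 0.12 in EV. Rpp40, a subunit of the RNase that trims tRNA precursors, averaged 13.3 ± 3.6 RPKM in WT, 14.2 ± 1.2 in HEA, 6.21 ± 1.0 in RA and 8.00 ± 0.56 in EV. The WT minus HEA difference at 8 h was 0.04 ± 0.10 (SE) for Spry1, 0.08 ± 0.14 for Dnmt3b, 0.02 ± 0.18 for Pou3f1 and -0.12 ± 0.19 for Rpp40. Missing the threshold does not show equal levels: at 4 h the difference of Pou3f1 was 0.41 (limma adjusted p = 0.0712).

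Few members differed between the times in OHT. The WT and HEA libraries of both times were used to choose the members, with the bound hardest to reach in WT at 4 h, so their counts are a description. In WT, 11 members rose and 1 fell at 8 h relative to 4 h by limma-trend, beside 4.46% and 4.00% of genes tested. In HEA, Rgcc rose and 3 members fell (1 higher, 3 lower), beside 1.26% and 2.08%. In RA 0 changed by limma-trend (8 higher and 2 lower at an unadjusted p under 0.05, and 0 by voom), beside 0.155% and 0.0652%. These counts were fragile. With only the 2 groups of a form in the fit, 0 members passed in WT and 0 in HEA (voom in the full fit called 15 and 4, and at an unadjusted p under 0.05 there were 26 higher and 2 lower in WT, and 6 higher and 11 lower in HEA, in the fit of all libraries). In WT, 1 member was left when replicate 1 of 8 h was removed, 5 when replicate 2 of 4 h was removed and 7 when replicate 3 of 8 h was removed. In HEA, 0 were left without HEA at 4 h replicate 2 or HEA at 8 h replicate 2 or 3. The change of the difference from EV between 8 h and 4 h passed for 0 members in WT, HEA or RA by limma-trend, with 5 positive and 1 negative in WT, 0 and 1 in HEA, and 2 and 1 in RA at an unadjusted p under 0.05.

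In WT, Reep6 was higher at 8 h (23.1, 14.2 and 18.2 RPKM) than at 4 h (10.0, 9.46 and 7.47 RPKM), by 0.99 ± 0.24 (limma adjusted p = 0.0168). The call was lost without replicate 1 of the 8 h libraries (0.0895) and without replicate 3 of the 4 h libraries (0.0774). Tspan33, a tetraspanin, had 1.88, 1.54 and 1.16 RPKM at 8 h and 0.339, 0.563 and 0.832 RPKM at 4 h in WT, a difference of 0.92 ± 0.18 (limma adjusted p = 0.00466). In HEA Tspan33 was already at 1.67, 2.06 and 1.76 RPKM at 4 h, and 1.57, 2.48 and 1.99 RPKM at 8 h. Gls2 rose in WT by 0.66 ± 0.16 (limma adjusted p = 0.0168), a call lost without replicate 1 of 8 h (0.104) and without replicate 2 of 4 h (0.0649).

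In HEA, Rgcc had 14.7, 16.6 and 17.4 RPKM at 8 h and 8.03, 5.94 and 6.27 RPKM at 4 h, a rise of 1.22 ± 0.27 (limma adjusted p = 0.0174), lost without HEA at 4 h replicate 2 (0.0947) or HEA at 8 h replicate 2 (0.0666) or 3 (0.0785). Adamts9 had 3.24, 2.60 and 2.63 RPKM at 8 h and 3.76, 4.99 and 4.01 RPKM at 4 h in HEA (-0.51 ± 0.14, limma adjusted p = 0.0456), and the call was lost without any 1 of HEA at 4 h replicate 2 (0.263) or HEA at 8 h replicates 2 (0.178) and 3 (0.175). Slc30a1, a zinc exporter, had 17, 17.5 and 17 RPKM at 8 h and 24.1, 22.1 and 23.2 RPKM at 4 h in HEA (-0.42 ± 0.10, limma adjusted p = 0.0325). Its call was lost whichever HEA library was left out.

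The set contains 0 of 60 listed targets of Myc, chiefly genes of ribosome biogenesis with some of replication, protein folding and other functions, which were all tested. Across genes past the filter 0.807% belong to the set, a share at which a list of 60 can often hold none. In WT at 8 h, 43 of the 60 were higher than in EV by limma-trend and 17 did not pass, beside 15.2% of genes tested higher and 20.1% lower. The median was 0.32 (all genes -0.02). In HEA at 8 h, 4 were higher and 34 lower, beside 20.2% and 27.5%, with a median of -0.24 (all genes -0.05), and the highest difference was 0.44. The higher count was 2 without EV replicate 1 or without HEA replicate 2. For example Nop56, a nucleolar protein, averaged 136 ± 3.6 RPKM in WT, 101 ± 1.6 in HEA, 108 ± 2.0 in RA and 113 ± 2.4 in EV at 8 h (WT minus EV 0.26 ± 0.050, limma adjusted p = 0.000368; HEA minus EV -0.16 ± 0.050, 0.0113). In RA at 8 h 2 were lower (Ppan and Slc19a1) and 58 did not pass, a count that became 13 lower with only RA and EV in the fit and 0 or 1 when a library of either group was left out. The WT, HEA and RA comparisons share the EV libraries.

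Of 10 tested genes of the Myc and Max network, 4 were higher in WT at 8 h (Max, Mxi1, Mga and Mlxip). Lower in WT were 4 (Myc, Mxd1, Mxd3 and Mxd4), beside 15.2% of genes tested higher and 20.1% lower. In HEA, 2 were higher (Mxi1 and Mxd4) and 2 lower (Mxd3 and Mlx), beside 20.2% and 27.5%. Mxi1 is the gene of this list that met the rule of the set, and Mxd4 went in opposite directions in WT (11.3 ± 1.6 RPKM) and HEA (36.9 ± 5.7 RPKM) relative to EV (24 ± 2.2 RPKM) at 8 h. Of 14 tested clock genes with known E-box control, 4 were higher and 3 lower in WT at 8 h. In HEA at 8 h 3 were higher and 6 lower. The shares over all genes are those just given, and the 3 lower in WT and 3 higher in HEA are near them. Dbp and Nr1d1 were higher in WT and lower in HEA, and Per2, Bhlhe40 and Arntl lower in WT and higher in HEA. Members of the set are 0 of the 14, beside 0.807% of genes past the filter.

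The authors' deposited table compares each form with EV. It gives an adjusted p for 91 of the 99 members in WT and 90 in HEA at 8 h, of which 86 and 86 were called higher (adjusted p under 0.05). At 4 h it gives one for 84 members in WT and 89 in HEA, and calls 77 and 85 higher. In RA the authors' deposited table calls 4 members higher and 4 lower at 4 h, and 7 higher and 4 lower at 8 h, of 75 members with an adjusted p at each time. The share of all genes that it calls in RA was not worked out, so these counts have no background beside them. Of the 11 short RNA entries, 0 have an adjusted p in WT and 2 in HEA at 4 h, and 3 in each at 8 h, in the authors' deposited table. The WT and HEA counts use the values that chose the members and add no independent evidence.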

How the data were processed

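The 24 RNA-seq libraries, 3 in each of 8 groups, were made from total RNA of 3T9 cells with a stranded kit, per the labels' protocols. Tools listed by the submitters' processing notes are featureCounts 1.4.5-p1, TopHat2 2.0.8, DESeq2, SAMtools and TopHat, with mm9 as the build. The annotation and the strand counted are points not given in the sources used here. Per the file headers, the authors deposited RPKM for each gene in each library. A second deposited file of the authors gives, for each MycER form against EV, a log2 fold change and an adjusted p-value.

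RPKM are not counts, so limma-trend (limma 3.58.1, R 4.3.3) was run on log2(RPKM + 0.5) for the 12268 genes with at least 1 RPKM in at least 3 libraries. All 24 libraries entered 1 fit of 8 group means, with Benjamini-Hochberg adjustment over all genes tested and 0.05 as the threshold. This scale understates changes of low genes. Whole reads were recovered from the RPKM steps (100% of 361832 values above 0, in genes seen in at least 2 libraries, within 0.01 of a whole read) and served for depth and for a voom alternative. A count of 0 allows up to 3 reads, which covers counting error only. The fit was tested on simulated data. Tables and figures were made in Python 3.11.15 (matplotlib 3.10.9, scipy 1.17.1, pandas 2.3.3, numpy 2.4.6). Promoters came from RefSeq (GRCm38.p6). Coordinates of the files' build were not used.

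The members, gene lists and tests were chosen with earlier results of these data known. Genes named are, by rule, the 8 members with the largest value of their smallest difference from EV, the 5 with the highest mean RPKM, up to 6 with the smallest adjusted p between RA and EV, up to 5 in each direction between WT and HEA at 8 h, up to 3 in each direction between times in WT and in HEA, members of the lists, and the 3 on each side of the bound. Clone-named genes were passed over in this. Other genes are named by role or because they hold CACGTG, and were chosen after their values were seen. Alternatives were other pseudocounts, no filter, median centring, quantile normalisation, fits of only the groups compared, fits without trend, a replicate block, voom, and leaving out each library in turn; leaving out the 3 farthest libraries together was added after seeing the data.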

Additional observations from a re-analysis of the deposited data

How the results depend on the processing

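Membership depended on the bound and the pseudocount: 149 genes with a bound of 0.5, 70 with 0.7, 71 with a pseudocount of 1 and 141 with 0.1. Leaving out a single library gave 89 to 119 genes, and 63 members, 3 of them short RNA entries, were present whichever library was left out. For RA against EV, the count at 4 h was 0 with only the groups compared in the fit; leaving out a library gave 4 to 9 at 4 h and 3 to 9 at 8 h. For 8 h against 4 h, WT had 7 with quantile normalisation, 0 with only the groups compared and 1 to 10 without a library; HEA had 2 without a filter, 0 with only the groups compared and 0 to 4 without a library. The Myc targets that differed between RA and EV at 8 h numbered 7 without the 3 farthest libraries, 13 with only the groups compared, 1 without a filter, 1 without trend, 1 with the replicate block, 0 with median centring and 0 to 1 without a library. The cause was not tested. All other totals stayed within 1.5 times. By direction, leaving out a library gave 2 to 5 higher and 2 to 4 lower for RA against EV at 4 h, and 2 to 6 higher and 0 to 3 lower at 8 h. The 4 Myc targets higher in HEA at 8 h were 2 to 4 without a library, and 6 with median centring or with only the groups compared. Replicate numbers showed no clear pairing of the samples. In no comparison did all 3 same-numbered pairs correlate above 0.1 (lowest -0.598, highest 0.407), although all 3 were above 0 in 4 comparisons. At most 2 of 3 numbers correlated best with their own. With 3 libraries a group, these correlations cannot exclude pairing. With the replicate block 10 and 8 members passed for RA against EV at 4 h and 8 h, and 42 and 34 for WT against HEA. Of 37 gene results with a test, 21 stayed past the threshold under every alternative, and 0 reversed over 592 alternatives. The genes were picked because they had passed the threshold in these same data, so a reversal was unlikely from the start. Depth limits the short RNA entries and the genes under about 10 reads.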
